A study of Mus musculus with 2 samples.

Results

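The 9 genes described here carry foreign-RNA sensing from the sensors to the first interferon. They are the RIG-I-like receptor genes Ddx58, Ifih1 and Dhx58, the sensors Tlr3 and Eif2ak2, the adaptor gene Mavs, the kinase gene Tbk1, the transcription factor gene Irf3 and the interferon gene Ifnb1. They were chosen by symbol, through the GENCODE M21 annotation, from 43629 genes in the files, and a gene with 0 reads was kept. All 9 symbols matched 1 gene each, and Ddx58 is the older name of Rigi. The RNA came from mouse embryonic stem (ES) cells with a Drosha knockout, of the 129/Ola background at passage 7, grown without further treatment in serum with LIF, a cytokine that keeps such cells undifferentiated. There were 2 poly-A RNA libraries, A and B, of 1 genotype, so no level below is a change from cells with Drosha. The title numbers the cells differently in A and B while the source name is the same. Separate cultures or lines are therefore not established, and the spread between A and B may be technical. Both titles also carry the mark d5, which was not interpreted here.

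RIG-I, the product of Ddx58, and MDA5, the product of Ifih1, bind foreign RNA in the cytosol, RIG-I mainly at the ends of short duplexes and MDA5 along long ones. Both signal through MAVS on the mitochondrial surface, where TBK1 phosphorylates IRF3, and IRF3 then enters the nucleus and switches on Ifnb1. LGP2, the product of Dhx58, lacks the signalling domains and modulates the other two sensors, TLR3 reads duplex RNA in endosomes, and the Eif2ak2 product PKR halts translation when it binds such RNA. Drosha cuts RNA hairpins in the nucleus, and pluripotent cells are known for a weak interferon response.

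Library A held 29264632 counts and library B 42322129. Levels are given as CPM, counts scaled to a fixed library size. A gene without reads may have reached 0.102 CPM in A and 0.0712 CPM in B, which 3 counts would give. These floors, which are 1-sided, and every interval below, which is 2-sided, cover counting error only, at the 95% level. Drosha itself had 4865 reads in library A and 7023 in library B, and a count over the whole gene does not check the knockout label. All 12 ES cell markers passed 1 CPM in both libraries, at 155 to 2352 CPM. The fibroblast list had 6 of 15 genes at that level, the endothelial list 6 of 8 and the macrophage and leukocyte list 3 of 14. Of 21551 protein-coding genes, 57.8% were at that level. The endothelial genes summed to 261 CPM in A and 258 CPM in B, most of it from Pecam1 with 5066 reads in library A and 7243 in library B. Those below 1 CPM were Cdh5, with 5 reads in A and 7 in B, and Emcn, with 0 in both. The fibroblast genes summed to 299 CPM in A and 285 CPM in B, most of it from Vim, Fbln1 and Thy1, and Twist2 was the 1 gene of the list at 0 reads. Col1a1 had 77 reads in library A and 80 in library B, Col3a1 had 47 in A and 14 in B, and Dcn had 51 in A and 24 in B. Of 11 fibroblast genes with at least 10 reads, 4 were more than 2-fold higher in A. Over all 18198 genes with that many reads, 2.96% passed 2-fold in either direction. The macrophage and leukocyte genes summed to 15.7 CPM in A and 17.4 CPM in B, most of it from Cd68 with 388 reads in library A and 594 in library B. Spi1 had 32 reads in A and 49 in B, and Itgam, which shares most of its exon bases with another gene on the same strand, had 30 in A and 65 in B. Of the 14, 4 were at 0 reads in both libraries, Adgre1 among them, and Ptprc had 1 read in each. The markers named here were picked from their lists after their values were seen. The part of other cells in the levels of the 9 genes was not tested.

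Short stretches around 4 of the gene starts are shown because they hold the letters that interferon-related factors are known to read. Promoter windows from RefSeq (GRCm38.p6, 250 bases before to 50 after the annotated start, 300 in all) were found for 8 of the 9 genes; the other is Dhx58. Both strands were searched for GAAANNGAAA, the letters of the interferon-stimulated response element (ISRE), for AANNGAAA, the core bound by interferon regulatory factors, and for GGGANNTTCC, a form of the NF-kB site (kB). Every ISRE match contains a match to the core. Of 32851 windows of this length for mouse genes, 3.44% held the ISRE letters, 23.9% the core and 1.47% the kB letters. The ISRE letters stood just after the start in Ddx58, Ifih1 and Eif2ak2. In the 30 bases printed for each, read 5′ to 3′ on the gene's strand, the ISRE letters are in capitals; in Ddx58 they run on the other strand. All 3 genes lie on the minus strand, and the capitals fall within the annotated exons.
Ddx58, chr4:40239804-40239833: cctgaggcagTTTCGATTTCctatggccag
Ifih1, chr2:62646206-62646235: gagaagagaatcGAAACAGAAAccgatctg
Eif2ak2, chr17:78882535-78882564: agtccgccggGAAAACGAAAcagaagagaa

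The Ifnb1 window held 3 core matches and 1 kB match within 53 bases, ahead of the start. In the 100 bases below, on the minus strand, capitals mark the core matches and, at the right, the kB match.
Ifnb1, chr4:88522865-88522964: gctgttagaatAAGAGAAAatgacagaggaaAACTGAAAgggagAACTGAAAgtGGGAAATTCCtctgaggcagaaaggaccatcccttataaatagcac
Tlr3 had 1 core match and 1 kB match, while the windows of Mavs, Tbk1 and Irf3 had none of these letters. The Tlr3 matches stand ahead of the RefSeq start but within the span of the counted gene, which runs to 45411080 on the minus strand. A match is a description of the letters and not a bound site.

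**Figure D1:**
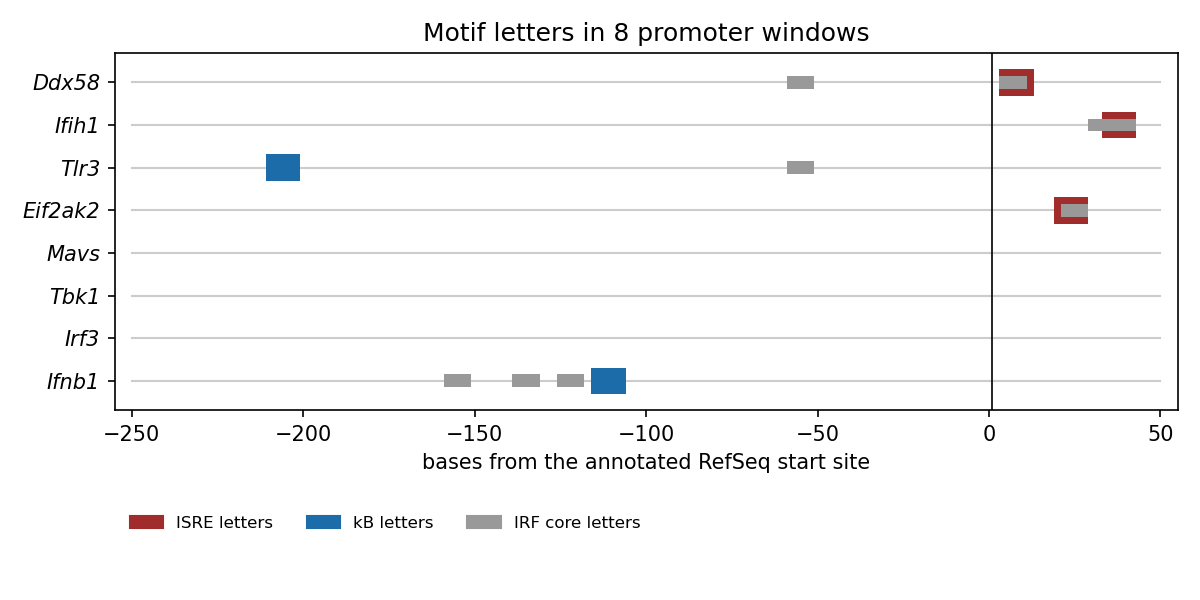
Position of the motif letters in the promoter windows of 8 genes, in bases from the annotated RefSeq start (vertical line). Red, blue and grey boxes are ISRE, kB and core matches; the 3 ISRE matches lie between 3 and 42 bases into the annotated transcripts of Ddx58, Ifih1 and Eif2ak2.

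Among the 9 genes, 5 signalling and sensing genes lay at like, moderate levels. Dhx58 was lower, at a mean of 2.47 CPM, and Tlr3, Ifih1 and Ifnb1 were below 1 CPM in both libraries. Of the 9 genes, 6 reached 1 CPM in both libraries, against 57.8% of 21551 protein-coding genes. Their median was 22.6 CPM, beside 3.90 CPM over protein-coding genes, and the range ran from 0 to 33.5 CPM. The genes were picked for their roles, so this is a description of them and not a test. In bulk RNA, a gene that is low in every cell and one that is high in few cells cannot be told apart.

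The RIG-I-like receptors differed widely among themselves. Ddx58 (ENSMUSG00000040296, chromosome 4, 40203773 to 40239828) had 995 reads in library A and 1400 in library B, that is 33.8 CPM in A and 33.2 CPM in B. The counting intervals were 31.8 to 36.0 CPM in A and 31.5 to 35.0 CPM in B, which overlap. Ddx58 had the highest CPM of the 9 in library A and in the mean, while in library B Eif2ak2 was higher at 33.9 CPM.

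Ifih1 (ENSMUSG00000026896, chromosome 2, 62595798 to 62646255) had 1 read in A and 1 in B, although its annotated exons span 8165 bases. Its intervals reached up to 0.189 CPM in A and 0.132 CPM in B, below the 1 CPM line in both. Per base of exon and over both libraries, 2395 reads of Ddx58 against 2 of Ifih1 gave a ratio of 1387, with a counting interval of 384 to 11459. RNA of the 2 sensors therefore differed by more than counting error, while both promoter windows carry the ISRE letters shown above.

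Dhx58 (ENSMUSG00000017830, chromosome 11, 100694884 to 100704271) had 70 reads in library A and 108 in library B, that is 2.38 CPM in A and 2.56 CPM in B. In TPM, which divides by exon length, Ddx58 was 6.60 times as high as Dhx58 in A and 6.02 times in B. The antisense gene Dhx58os shares 141 exon bases with Dhx58 on the opposite strand and had 0 reads in library A and 2 in library B.

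Of the other sensors, the endosomal Tlr3 was low and the kinase gene Eif2ak2 was not. Tlr3 (ENSMUSG00000031639, chromosome 8, 45395665 to 45411080) had 14 reads in library A and 33 in library B. That is 0.476 CPM in A and 0.783 CPM in B, with intervals of 0.260 to 0.799 and 0.539 to 1.10 CPM that overlap. Tlr3 was thus detected in both libraries, and its level did not differ beyond counting error. The antisense gene Gm45542, not analysed here, shares 381 exon bases with Tlr3 on the opposite strand.

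Eif2ak2 (ENSMUSG00000024079, chromosome 17, 78852564 to 78882573) had 873 reads in library A and 1429 in library B, that is 29.7 CPM in A and 33.9 CPM in B. Its intervals, 27.8 to 31.7 CPM in A and 32.2 to 35.7 CPM in B, do not overlap, and it had the widest SD of the 9 genes in CPM (31.8 ± 2.99, n = 2). The opposite-strand lincRNA Gm26637, which shares 174 exon bases with it, had 4 reads in library A and 1 in library B.

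RNA of the relay from sensor to interferon gene was present at each step before the interferon. Mavs (ENSMUSG00000037523, chromosome 2, 131234063 to 131248025) had 852 reads in library A and 1298 in library B, that is 29.0 CPM in A and 30.8 CPM in B. Tbk1 (ENSMUSG00000020115, chromosome 10, 121546455 to 121586787) had 941 reads in library A and 1341 in library B, that is 32.0 CPM in A and 31.8 CPM in B. Mavs and Tbk1 were close to each other in CPM, and Tbk1 had the smallest SD among the 5 moderately expressed genes (31.9 ± 0.120 CPM, n = 2).

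Irf3 (ENSMUSG00000003184, chromosome 7, 44997648 to 45002848) had 692 reads in library A and 915 in library B, that is 23.5 CPM in A and 21.7 CPM in B. It was the lowest of the 5 in CPM, and its counting intervals of 21.8 to 25.4 CPM in A and 20.3 to 23.2 CPM in B overlap. Irf3 shares 88 exon bases with Bcl2l12, which runs the other way and had 299 reads in library A and 389 in library B.

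Ifnb1 (ENSMUSG00000048806, chromosome 4, 88522025 to 88522774) had 0 reads in both libraries. Its single annotated exon of 750 bases overlaps no other gene of the annotation. The floor for a count of 0 is 0.102 CPM in A and 0.0712 CPM in B. The interval form used for the other genes reaches 0.125 CPM in A and 0.0876 CPM in B.

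**Figure D2:**
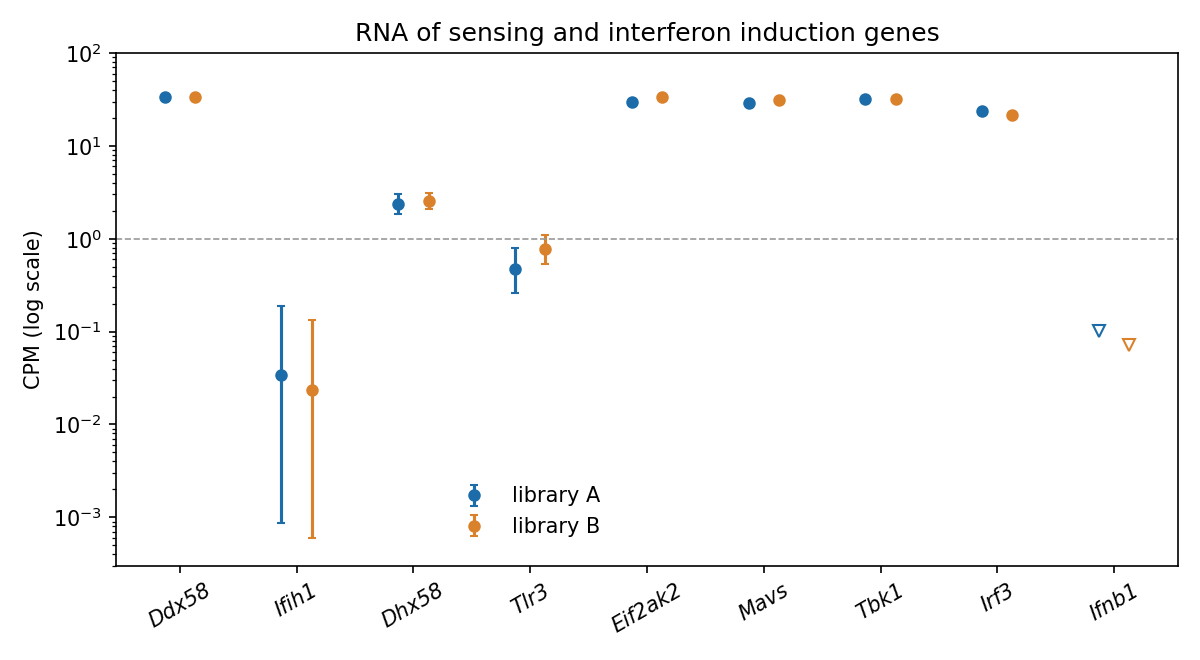
CPM of each of the 9 genes in libraries A (blue) and B (orange), on a log axis with sensors to the left and the interferon gene to the right; bars are 95% counting intervals, open triangles mark the 3-count floor where 0 reads were found, and the dashed line is 1 CPM. Ddx58, Eif2ak2, Mavs, Tbk1 and Irf3 lie between 21.7 and 33.9 CPM, while Ifih1 lies at 0.034 CPM in A and 0.024 CPM in B.

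Levels of different genes are comparable only per length, so the genes were also ordered in TPM from the summed length of all annotated exons. Mavs led at 23.8 ± 0.752 TPM (SD, n = 2), followed by Tbk1 at 21.8 ± 0.341, Irf3 at 17.6 ± 1.20, Eif2ak2 at 16.6 ± 1.36 and Ddx58 at 12.7 ± 0.313 TPM. Dhx58 had 2.02 ± 0.0816 TPM, Tlr3 0.322 ± 0.108 TPM and Ifih1 0.00945 ± 0.00249 TPM, and Ifnb1 closed the order at 0. Among neighbours, the values of Irf3 and Eif2ak2 overlapped between libraries, and those of the other pairs did not.

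The order within the leading 5 depended on which length was used. With the longest annotated transcript as the length, Irf3 led at 24.1 TPM, ahead of Tbk1 at 22.8, Mavs at 21.1, Ddx58 at 18.7 and Eif2ak2 at 15.9 TPM. The places of Dhx58, Tlr3, Ifih1 and Ifnb1 were the same under both lengths. By TPM from all exons, Mavs lay above 76.4% of protein-coding genes, Ddx58 above 67.0%, Dhx58 above 47.8% and Tlr3 above 36.2%. With 1 group there is no pattern across conditions. In TPM, no pathway gene of the lists below was the closest of the protein-coding genes to any of the 8 detected genes. The lists hold 181 genes beside 21551 protein-coding genes, so this says little about likeness.

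**Figure D3:**
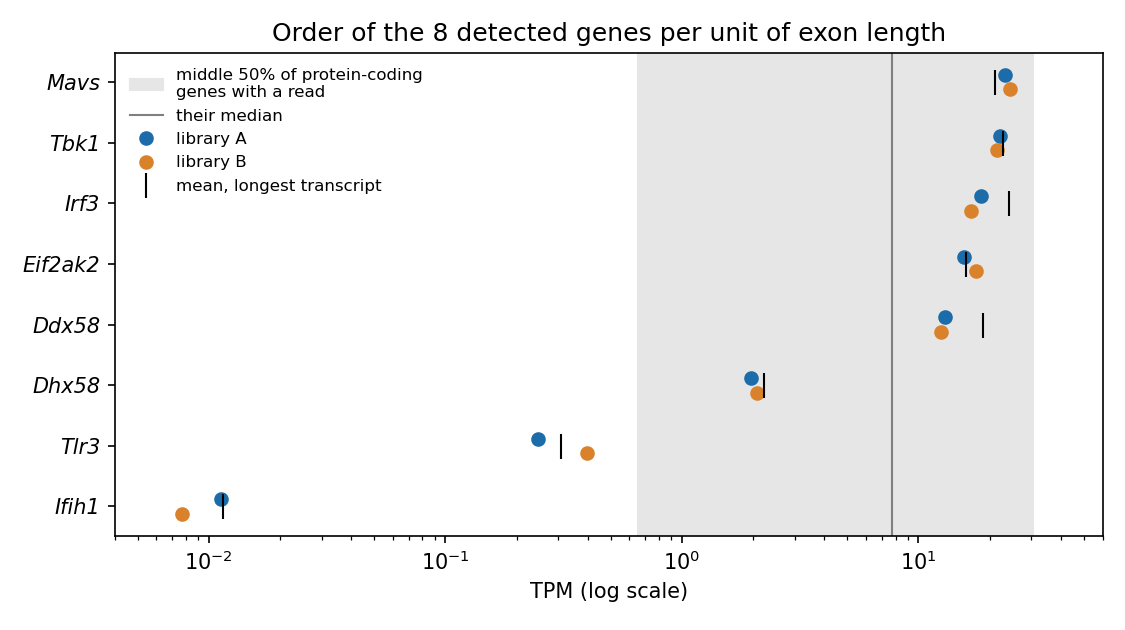
TPM of the 8 detected genes in libraries A (blue) and B (orange) on a log axis, highest at the top; black ticks are means from the longest transcript, and the grey band and line are the middle 50% and the median of protein-coding genes with a read. The 5 leading genes lie to the right of that median of 7.77 TPM, and Dhx58, Tlr3 and Ifih1 to its left.

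Both libraries were then set against each other, as 1 library on each side with no replicate check and no p-value. Ratios are of A over B after adding 0.5 reads, for genes whose reads in A and B sum to at least 10, which leaves 7 of the 9. None of the 7 passed a 2-fold difference, against 2.96% of 18198 genes. The log2 ratios of Ddx58 (0.026) and Tbk1 (0.0079) were closest to 0, and Tlr3 was the farthest at -0.69, with a counting interval of -1.73 to 0.22 that includes 0.

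Eif2ak2 was the 1 gene of the 7 whose interval left out 0, at a log2 ratio of -0.19 (-0.31 to -0.070). Over all genes with at least 10 reads 12.2% had such an interval, so 1 of 7 is near the background. The ratios of the remaining genes were -0.10 for Dhx58, -0.088 for Mavs and 0.12 for Irf3.

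**Figure D4:**
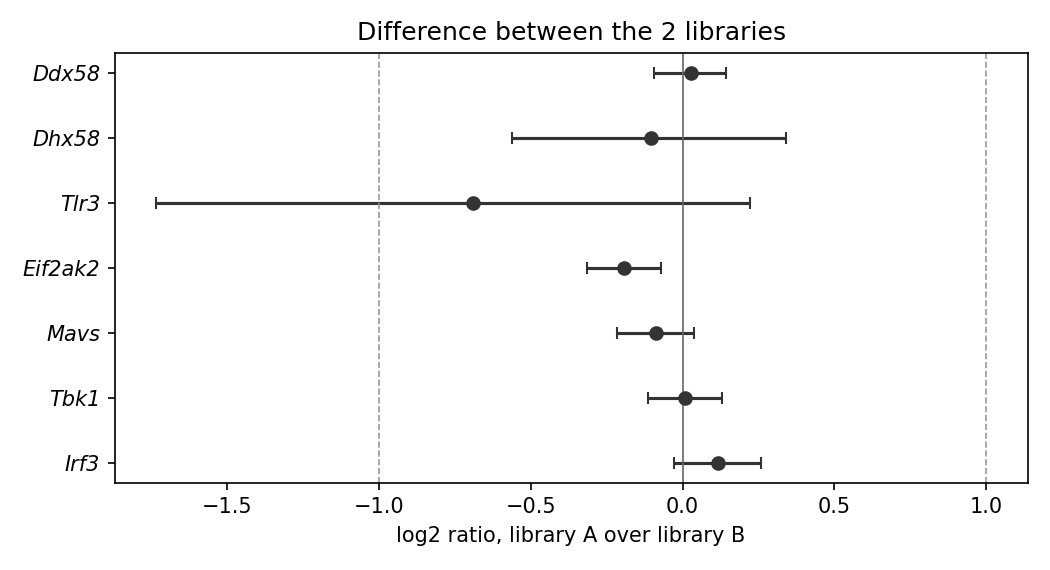
Log2 ratio of library A over library B for the 7 genes with at least 10 reads; bars are 95% counting intervals, the solid line is 0 and the dashed lines mark 2-fold. Tlr3, with 47 reads in all, has the widest interval, and Eif2ak2 lies left of 0 with its whole interval.

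The genes around the 9 were taken from 11 lists by role, 181 genes in all, of which 131 reached 1 CPM in both libraries. None of the lists is a test, and their medians stand beside the 3.90 CPM of protein-coding genes. Their counts stand beside the 57.8% of 21551 protein-coding genes that reached 1 CPM in both libraries.

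Genes that help or restrain the RIG-I-like receptors were abundant. Of 19, 17 reached 1 CPM, with a median of 59.1 CPM. Trim25, a ubiquitin ligase known to act on RIG-I, had 7034 reads in library A and 10221 in library B, or 112 ± 0.212 TPM. Rnf135, a second RIG-I ligase also called Riplet, was lower, at 9.58 ± 0.729 TPM. The 3 highest in TPM were the 14-3-3 gene Ywhae (1293 ± 10.8), the phosphatase gene Ppp1ca (375 ± 9.19) and the stress granule gene G3bp1 (216 ± 2.69), which also serve many other processes. The 2 genes below 1 CPM were Trim65, a ligase of MDA5, at 0.888 CPM and the helicase gene Ddx60 at 0.464 CPM, both named after their values were seen.

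The genes of the MAVS complex were all present, 24 of 24, with a median of 22.4 CPM. Traf3, the ubiquitin ligase that links MAVS to TBK1, had 640 reads in library A and 894 in library B, or 7.81 ± 0.232 TPM. Ikbke, which encodes the kinase nearest to TBK1, had 71 reads in library A and 104 in library B, or 0.723 ± 0.00273 TPM, far below Tbk1 at 21.8 TPM. The highest were Pcbp2 (648 ± 4.14 TPM) and Pcbp1 (603 ± 21.7 TPM), RNA-binding proteins that also promote loss of MAVS, and the import receptor gene Tomm70a (93.3 ± 1.16 TPM).

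In the endosomal branch 8 of 12 genes reached 1 CPM, with a median of 8.17 CPM, but the receptors themselves did not. Tlr7 had 4 reads in library A and 5 in library B, Tlr8 had 0 in both, and Tlr9 and Tlr13 had 1 in A and 0 in B; these receptors were named after their values were seen. Ticam1, the adaptor gene of TLR3, had 174 reads in library A and 222 in library B, or 4.99 ± 0.468 TPM. The highest were the protease genes Lgmn (81.9 ± 0.121 TPM) and Ctsl (59.9 ± 0.0723 TPM), which are general lysosomal enzymes, and the chaperone gene Cnpy3 (56.4 ± 1.74 TPM).

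Among 10 other genes of the interferon regulatory factors and their partners, 7 reached 1 CPM, with a median of 9.35 CPM. Irf7, the factor that amplifies interferon production, had 2 reads in each library, where Irf3 had 692 in A and 915 in B. Irf1 had 24.6 ± 0.738 TPM and Irf9, part of the complex that carries the interferon signal to the nucleus, 8.34 ± 0.129 TPM. The partner genes Irf2bp1 and Irf2bp2 stood at 19.3 ± 0.979 and 19.2 ± 0.455 TPM. The genes that encode NF-kB, AP-1 and their kinases and coactivators, which act with IRF3 at Ifnb1, were present in 13 of 13 cases, with a median of 40.3 CPM. The highest were the inhibitor gene Nfkbia (76.3 ± 3.65 TPM), Hmga1 (72.9 ± 0.313 TPM) and the kinase gene Chuk (50.9 ± 0.0566 TPM).

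No RNA of another gene named as an interferon was seen. The 19 other listed type I and III interferon ligand genes had 0 reads in both libraries, beside 4427 of 21551 protein-coding genes. On chromosome 4, the stretch from Ifnb1 to Ifne (88522025 to 88880201) held 49 genes in the files, of which 18 are named as interferon genes, a pseudogene included, and all 18 had 0 reads. Of the 31 other genes of the stretch 27 also had 0 reads. The genes were sorted by name alone, so interferon-like genes or pseudogenes under other names may be among these 31. Beside 18813 of 43629 genes in the files with 0 reads in both libraries, 45 of the 49 had none. The 4 with reads were named after their values were seen. Gm13273, an unprocessed pseudogene, and Gm26566 had 1 read each in all. The pseudogene Mrpl48-ps had 347 reads in A and 561 in B. Klhl9, a ubiquitin ligase adaptor gene, had 864 in A and 1310 in B. The alpha interferon genes are near-identical copies, and the sources used here do not say how multiply mapped reads were handled, so their 0 is less certain than that of Ifnb1.

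The machinery to receive interferon was present. Of 13 receptor and JAK-STAT genes, 11 reached 1 CPM, with a median of 28.4 CPM. The receptor gene Ifnar1 had 1327 reads in library A and 1768 in library B, and its partner Ifnar2 had 228 in A and 314 in B. Both were chosen by role after their values were known. Stat2, which encodes a factor that carries the interferon signal, had 12.8 ± 0.158 TPM. The highest were the inhibitor gene Socs3 (100.3 ± 4.50 TPM), Ptpn11 (30.2 ± 0.506 TPM) and Jak1 (27.1 ± 0.986 TPM).

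Genes that interferon is known to induce spread from 0 to 206 CPM. Of 30, 13 reached 1 CPM and 20 reached 0.5 CPM in both libraries, and the median was 0.836 CPM, below the 3.90 CPM of protein-coding genes. Isg15, a ubiquitin-like protein gene and a strong interferon target, had 0 reads in library A and 1 in library B. Cxcl10 had 5 in A and 7 in B, and Rsad2 had 5 in A and 9 in B. Ifit1 had 16 in A and 33 in B, and Oasl1 had 52 in A and 66 in B.

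The highest in TPM were Ifitm3, Bst2 and B2m. Ifitm3 had 811 ± 8.88 TPM, Bst2 243 ± 5.19 TPM and B2m, the light chain of class I molecules, 42.1 ± 0.609 TPM. The Oas1a gene, one of a family of near-identical copies whose products are switched on by duplex RNA, had 661 reads in library A and 959 in library B. Parp9, Dtx3l, Oas3, Oas2 and Tap1 lay between 5.96 and 9.19 CPM in either library, and Psmb9, Zbp1, Oasl1 and Ifit2 between 1.52 and 2.56 CPM. Of these 9 genes all but Oasl1, and also Oas1a, were named after their values were seen.

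Around PKR, 14 of 15 genes reached 1 CPM, with a median of 57.0 CPM. Eif2s1, which encodes the translation factor subunit that PKR phosphorylates, had 163 ± 1.86 TPM, the exchange factor gene Eif2b5 216 ± 1.91 TPM and the stress factor gene Atf4 522 ± 14.5 TPM. The PKR activator gene Prkra had 23.4 ± 0.219 TPM, and Tarbp2, whose product binds and restrains PKR and also partners Dicer, had 46.0 ± 1.83 TPM.

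Genes that process or edit the cell's own duplex RNA, or that keep self nucleic acids down, were present in 16 of 17 cases, with a median of 84.1 CPM. Adar, which edits duplex RNA and so hides it from MDA5, had 21.4 ± 0.165 TPM, and Dicer1 had 30.2 ± 0.370 TPM. The highest were the helicase gene Dhx9 (160.0 ± 0.683 TPM), Dnmt1 (149.8 ± 0.229 TPM) and the Drosha partner gene Dgcr8 (83.8 ± 0.717 TPM). Trex1 was listed at 0 in both libraries, but all of its exon bases are shared with another gene on the same strand, so its 0 cannot be read as absence. Trex1 was named after its values were seen.

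In cytosolic DNA sensing, 8 of 9 genes reached 1 CPM, with a median of 50.9 CPM. The sensor gene Cgas had 50 reads in library A and 65 in library B, and Tmem173, which encodes the adaptor STING, had 89 in A and 125 in B. At 1.05 ± 0.0845 and 2.92 ± 0.0757 TPM, both were below Mavs at 23.8 TPM. The highest were Pqbp1 (87.7 ± 0.158 TPM), the polymerase gene Polr3c (47.6 ± 1.11 TPM) and the DNA sensor gene Aim2 (38.8 ± 1.61 TPM).

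**Figure D5:**
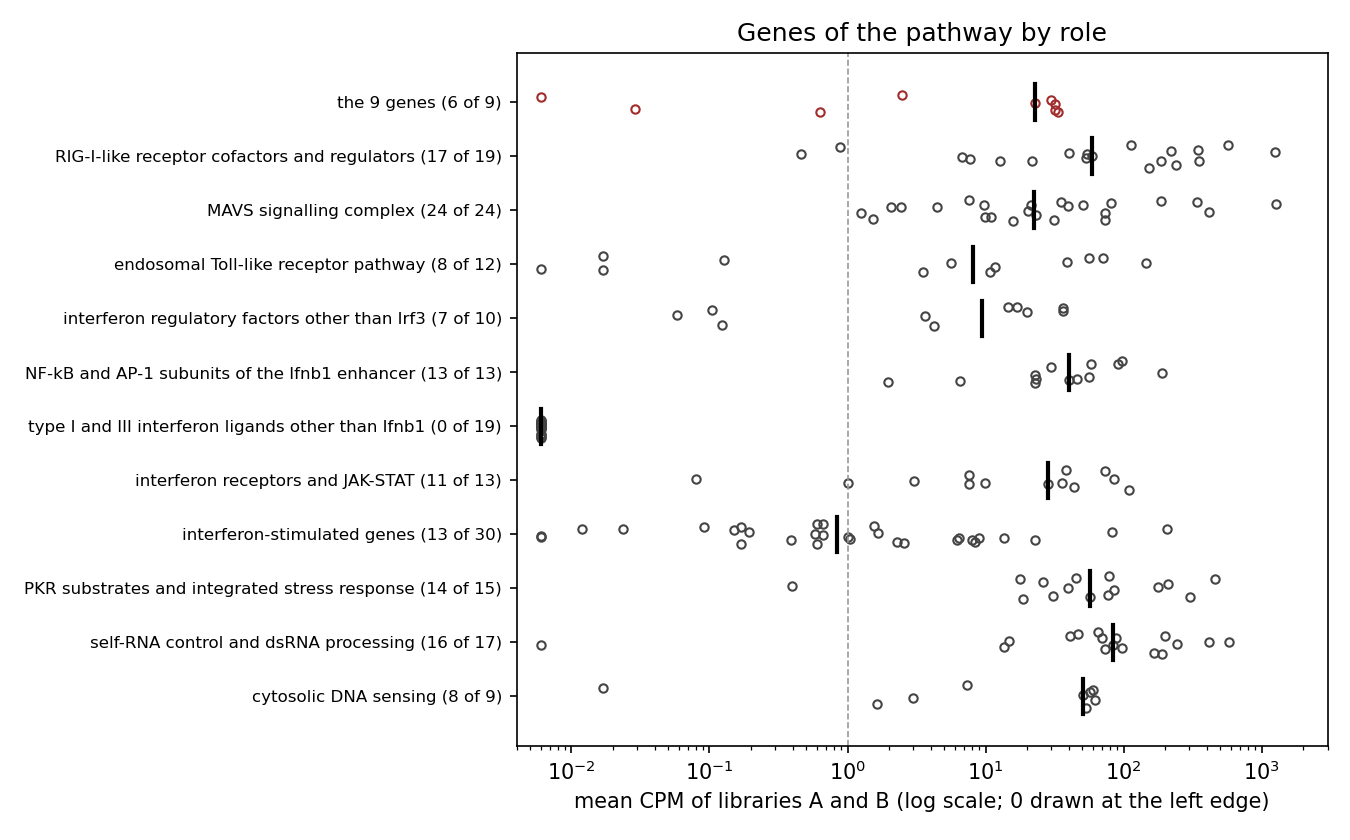
Mean CPM of libraries A and B for the 9 genes (red) and the genes of 11 lists by role (grey), on a log axis with genes at 0 drawn at the left edge; black bars are list medians, the dashed line is 1 CPM, and the numbers after each name count genes at 1 CPM or more in both libraries. The 19 other interferon ligands all sit at 0 and the interferon-stimulated genes spread on either side of 1 CPM, while 24 of 24 genes of the MAVS complex lie above it.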

How the data were processed

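Each deposited file gives 1 library as raw counts of reads for each Ensembl gene ID, made by the authors and with no pooling, per the file headers. RNA was taken with Trizol and made into TruSeq libraries by a reverse-stranded protocol, per the labels' protocols. STAR 2.4.2a, featureCounts 1.4.5-p1 and mm10 are named without roles, per the submitters' processing notes. The sources used here do not say which annotation and strand setting were used or how multiply mapped reads were handled.

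Of 43629 IDs 97.5% matched GENCODE M21 (GRCm38), and the rest held 0.163% of counts. CPM used TMM scaling over the whole table (edgeR 4.0.16, R 4.3.3). TPM used summed exon lengths. Intervals of counts are exact Poisson and those of ratios exact Clopper-Pearson (scipy 1.17.1). The ratio was checked on simulated counts that held counting error only, so the check does not cover other spread between libraries. No p-value was computed, since both libraries are of 1 group.

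The 9 genes and the 11 lists were chosen with earlier results of these data known. Named genes are the 9, the 3 highest in TPM of each list, interferon ligands with a read and a fixed set of 21 genes; exceptions are marked, and some of the fixed set are not reported here. Alternatives were total counts, DESeq2 1.42.0 size factors, totals without mitochondrial genes, 0.5 and 5 CPM, TPM, the longest transcript, filters of 1 and 50 reads, each library alone and, chosen after seeing the data, TMM over genes with at least 10 reads.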

Additional observations from a re-analysis of the deposited data

How the results depend on the processing

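The count of 6 of the 9 genes at 1 CPM in both libraries was the same under total counts, DESeq2 size factors, totals without mitochondrial genes, TMM over genes with at least 10 reads, 0.5 CPM, TPM by either length and each library alone, and was 5 at 5 CPM, where Dhx58 drops out. The 131 of 181 listed genes ran from 115 at 5 CPM to 140 at 0.5 CPM, and from 132 to 133 with 1 library left out. Among the lists, the interferon-stimulated genes moved most, with 20 of 30 at 0.5 CPM in place of 13. None of the genes tested among the 9 passed a 2-fold difference between libraries under the scalings tried or under the filters, which tested 7 with at least 10 reads, 8 with at least 1 and 6 with at least 50; Ifnb1 was never tested. Over all genes 538 of 18198 did with at least 10 reads, 4916 of 24816 with at least 1 read and 19 of 14837 with at least 50. The filters differ by how many low counts they admit. Other scalings moved the mean CPM of the 9 genes by at most 0.114% when mitochondrial genes stayed in the totals, and leaving those out raised every mean above 0 by nearly the same small share. No paired analysis was possible because both libraries belong to 1 group. Depth limits Ifih1, Tlr3 and Ifnb1, whose levels rest on 2, 47 and 0 reads in all.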
